A study of Homo sapiens with 179 samples.

Results

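Polycomb proteins keep genes silent through 2 kinds of chromatin complex, and the 10 genes described here encode subunits of both: EZH1, EZH2, EED, SUZ12, JARID2, MTF2 and PHF19 of Polycomb repressive complex 2 (PRC2) and RNF2, CBX2 and CBX7 of Polycomb repressive complex 1 (PRC1). They were chosen by gene symbol, with earlier results of these data known, and all 10 are among the 19084 genes of the deposited tables. The 179 libraries all came from H1, a widely used line of human embryonic stem cells, kept in the defined culture medium E8 on Matrigel, a basement membrane extract. No library carries a gene edit, and E8 is the 1 treatment that the labels name. Illumina's TruSeq kit was used for H1p16 (n = 3) and H1p43 (n = 3), and LM-Seq, a strand-specific protocol with oligo-dT selection and random hexamer priming, for Lane1 (n = 95), Lane2 (n = 48), Lane3 (n = 24) and Lane4 (n = 6). The LM-Seq groups differ by how many libraries shared a lane, and TruSeq libraries were run at 12 per lane. The sources used here do not say what the letter p or the LM-Seq library numbers stand for, nor that replicates were separate cultures. The p-values therefore measure library-to-library spread, part or all of which may be technical.

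PRC2 places methyl groups on lysine 27 of histone H3. Its catalytic subunit is EZH1 or EZH2, EED and SUZ12 hold the complex together, and accessory subunits such as JARID2, MTF2 and PHF19 guide it to CpG-rich DNA. PRC1 attaches ubiquitin to histone H2A through RNF2 or RING1, and in its canonical form a CBX subunit binds the methylated histone. In embryonic stem cells both complexes cover the promoters of developmental regulators, and CBX7 is the CBX subunit best known for this in pluripotent cells, with CBX2 better known from differentiating cells.

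Library totals ran from 23680503 to 35852646 expected counts in TruSeq, from 15780078 to 16583048 in Lane4, from 4028607 to 4918577 in Lane3, from 2005736 to 2739084 in Lane2 and from 1040671 to 1539277 in Lane1. All 6 pluripotency markers examined, POU5F1, NANOG, SOX2, LIN28A, TDGF1 and DNMT3B, were expressed in every group, with a summed level of 6860.1 to 7139 TPM (a transcript's level corrected for its length and for the library total) in H1p16, 5918 to 5953 TPM in H1p43 and 7826 to 8353 TPM in Lane4. By edgeR 5 of these 6 markers were called lower in H1p43 than in H1p16 and 1 was not called, beside 35.4% of all genes called lower. DNMT3B was at a log2 fold change of -1.03 ± 0.02 (edgeR adjusted p = 4.9e-18), LIN28A at -0.51 ± 0.02 and SOX2 at -0.29 ± 0.02. No mesendoderm or blood marker reached a mean of 1 TPM in a group. Of 6 fibroblast markers COL1A1, COL1A2 and PDGFRB did, and the list summed to 78.7 to 85.2 TPM in H1p16, 107.2 to 112.1 TPM in H1p43 and 138.6 to 150.2 TPM in Lane4, with COL3A1, LUM and DCN below 1 TPM. By edgeR COL1A2 (log2 fold change 0.68 ± 0.03) and PDGFRB (0.80 ± 0.05) were called higher in H1p43 than in H1p16, and COL1A1 lower (-0.08 ± 0.04). NES was the neuroectoderm marker above 1 TPM in all groups, joined by OTX1 in H1p43. Of 5 markers of epithelium or trophoblast only KRT7 was above 1 TPM, in all 6 groups. That list summed to 6.61 to 8.57 TPM in H1p16, 12.4 to 13.1 TPM in H1p43 and 8.10 to 17.5 TPM in Lane4, and KRT7 was higher in H1p43 (log2 fold change 0.61 ± 0.09, edgeR adjusted p = 1.0e-05). The part of other cells in the results below was not tested, and in bulk RNA fewer cells of a type and less RNA per cell cannot be told apart.

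JARID2 was the most abundant of the 10 transcripts in all 6 groups, with a mean of 205.9 ± 5.75 TPM (SD, n = 3) in H1p16, 151.7 ± 1.21 TPM (SD, n = 3) in H1p43 and 290.4 ± 5.24 TPM (SD, n = 6) in Lane4. In H1p16 JARID2 stood at percentile 96.0 of all 19084 genes. CBX7 was the lowest in every group and stood at percentile 40.8 in H1p16 and 37.9 in Lane4. In H1p16 the order from high to low was JARID2, CBX2, MTF2, EZH2, RNF2, SUZ12, EED, PHF19, EZH1 and CBX7. Of these neighbours only EED (26.5 ± 1.48 TPM) and PHF19 (24.0 ± 2.16 TPM) had overlapping ranges of mean ± 1 SD. H1p43 kept that order except that SUZ12 (39.5 ± 0.18 TPM) stood above RNF2 (34.03 ± 1.52 TPM). In Lane4 MTF2 (131.7 ± 4.70 TPM) and EZH2 (99.8 ± 3.09 TPM) stood above CBX2 (69.3 ± 4.54 TPM), which was second in both TruSeq groups. The plot of TPM by library shows these levels for all 179 libraries.

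**Figure D1:**
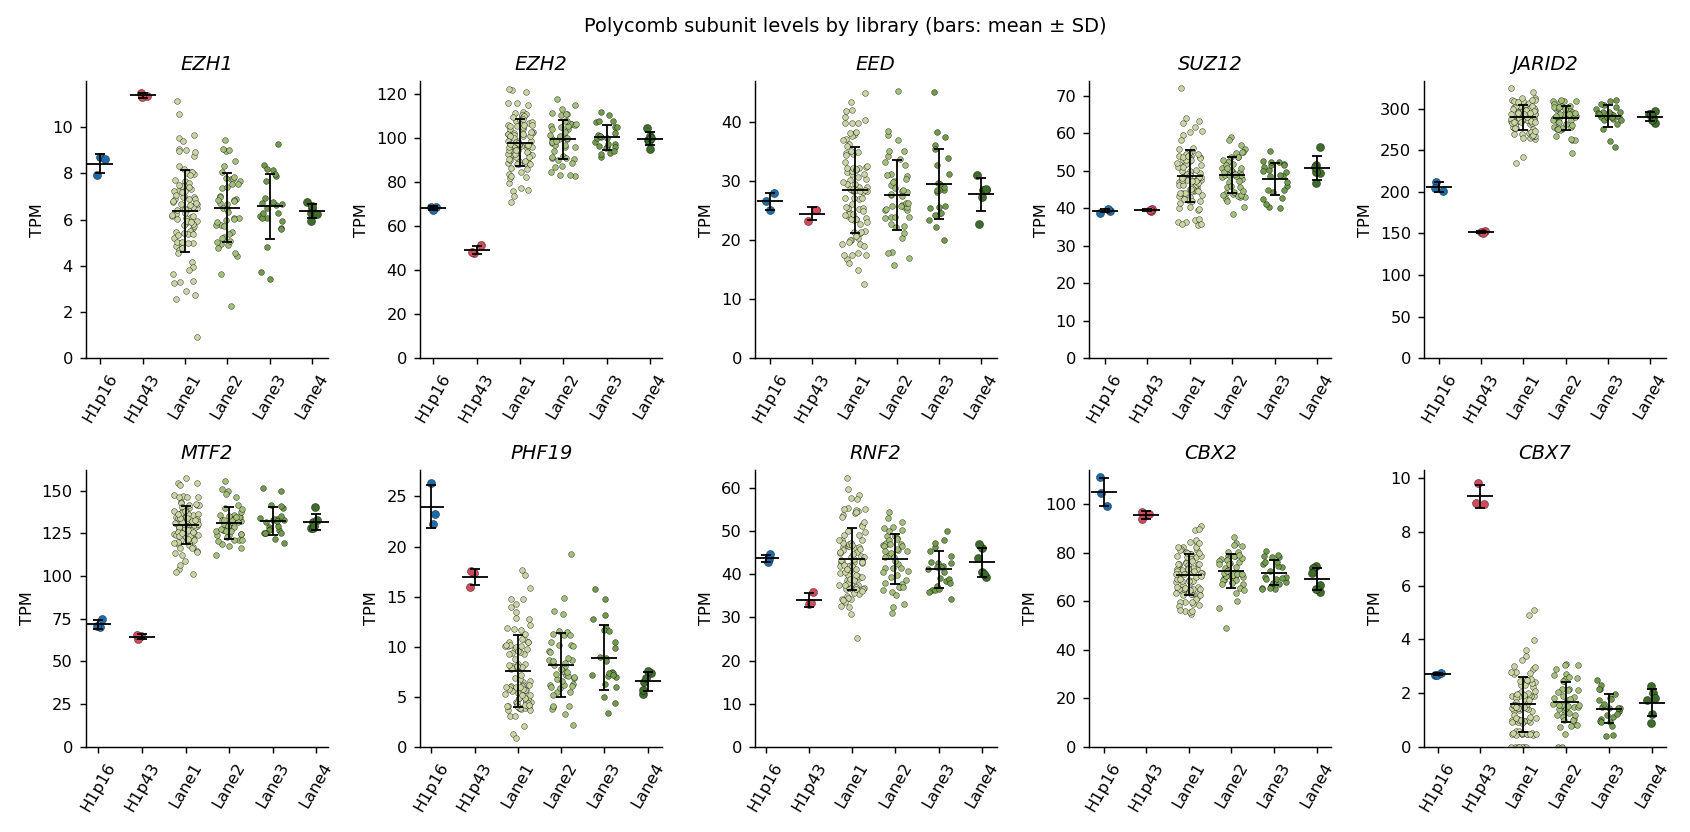
TPM (y axis, starting at 0) of each of the 10 Polycomb genes in every library of the 6 groups (x axis). Points are libraries, and bars give the mean ± SD. JARID2 lies between 150.5 and 212 TPM in the 6 TruSeq libraries and between 283 and 297 TPM in Lane4, and CBX7 is at 9.04 to 9.82 TPM in H1p43 and at 2.67 to 2.74 TPM in H1p16.

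The promoters are shown because PRC2 subunit genes, EZH2 and EED in particular, are known as targets of E2F factors, which drive genes of the cell division cycle. RefSeq promoter windows on GRCh38.p14, from 250 bases before to 50 bases after a start site, were matched by symbol for 9 of the 10 genes (12 windows). CBX2 has no entry. The motif searched was TTTCCCGC, TTTGGCGC, TTTCGCGC or TTTGCCGC on either strand, and no member window held more than 1 match, so no matches overlapped there. Of the 12 member windows, 1 each of EZH1, EZH2, SUZ12, MTF2 and PHF19 held it. The windows of EED, JARID2, RNF2 and CBX7 did not, nor did the other windows of EZH2 and PHF19. Of 35116 RefSeq windows of the same length 3.31% held it. Below, 30 bases around each match are printed on the strand of the gene, with the motif or its reverse complement in capitals. They lie at chr17:42745137-42745166 (minus strand) for EZH1, chr7:148884272-148884301 (minus) for EZH2, chr17:31936807-31936836 (plus) for SUZ12, chr1:93079277-93079306 (plus) for MTF2 and chr9:120877322-120877351 (minus) for PHF19.
EZH1: gcggggttttgGCGGCAAAtgacagtagtg
EZH2: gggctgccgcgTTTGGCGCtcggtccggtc
SUZ12: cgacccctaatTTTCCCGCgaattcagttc
MTF2: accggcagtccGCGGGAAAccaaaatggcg
PHF19: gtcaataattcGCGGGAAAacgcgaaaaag
A match describes letters and not a bound site, and binding was not measured here. The member windows had an observed over expected CpG ratio of 0.67 to 1.11, against a median of 0.58 over all windows. Every form of the motif holds a CpG, so the share over all windows is not a like background for these windows.

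The first comparison set H1p43 against H1p16, the TruSeq groups. EZH2, the main catalytic subunit of PRC2 in dividing cells, was 1.49-fold lower in H1p43 and its partner JARID2 1.46-fold lower, while the alternative catalytic subunit EZH1 was 1.25-fold higher and CBX7 3.21-fold higher. RNF2 and PHF19 were 1.38-fold and 1.43-fold lower, and EED, SUZ12, MTF2 and CBX2 differed less. By edgeR's quasi-likelihood test with Benjamini-Hochberg adjustment over 14574 genes, all 10 passed an adjusted p of 0.05, 2 higher and 8 lower. This has to be read against a background of 71.8% of all genes called, 36.4% higher and 35.4% lower, so that a call by itself sets no gene apart here. Of all calls 50.7% were higher in H1p43 by edgeR and 64.2% by limma on log2(TPM + 1). The median log2 fold change of the 10 genes was -0.26, beside 0.01 over all genes tested. TPM values of the groups did not overlap for 8 of the 10 genes, against 76.2% of 13296 genes that averaged 1 TPM or more in a group.

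EZH1, whose product methylates weakly and is best known from non-dividing tissue, was at 8.71, 8.63 and 7.94 TPM in the H1p16 libraries and at 11.4, 11.5 and 11.3 TPM in those of H1p43. All 3 libraries of H1p43 lay above all of H1p16. The log2 fold change of counts was 0.32 ± 0.05 (SE; edgeR adjusted p = 1.3e-05). EZH2 went the other way, from 68.6, 68.8 and 67.1 TPM in H1p16 to 47.9, 51.4 and 48.2 TPM in H1p43. Its highest H1p43 library was below its lowest H1p16 library, and the log2 fold change was -0.58 ± 0.03 (edgeR adjusted p = 3.5e-11).

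EED, which binds the methylated histone tail, was at 25.01, 26.6 and 27.96 TPM in H1p16 and at 23.2, 25.1 and 24.98 TPM in H1p43, so that the groups overlapped. The edgeR log2 fold change was -0.23 ± 0.05 (adjusted p = 0.00086), but limma on log2(TPM + 1) gave -0.11 ± 0.05 with an adjusted p of 0.0565. SUZ12, the scaffold of the complex, was at 39.4, 38.9 and 39.8 TPM in H1p16 and at 39.7, 39.3 and 39.4 TPM in H1p43. These values overlapped. SUZ12 was called lower by edgeR (log2 fold change -0.10 ± 0.03, adjusted p = 0.0033) and not by limma on log2(TPM + 1), where the value was 0.00 (adjusted p = 0.883), so its direction was not settled by these data. SUZ12 also has a pseudogene copy, and the division of reads between such copies is uncertain.

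Among the accessory subunits JARID2, which helps to recruit PRC2 to its targets, was at 212, 205 and 201 TPM in H1p16 and at 152.96, 151.6 and 150.5 TPM in H1p43. The groups stood well apart relative to the spread within them, with a log2 fold change of -0.55 ± 0.02 (edgeR adjusted p = 2.4e-13). MTF2, a Polycomb-like protein that binds CpG-rich DNA, was at 70.01, 70.7 and 74.9 TPM in H1p16 and at 65.03, 63.03 and 65.7 TPM in H1p43. It did not overlap, and its log2 fold change of -0.26 ± 0.03 (edgeR adjusted p = 5.3e-07) became -0.15 with limma on log2(TPM + 1), still called. PHF19, another Polycomb-like protein, was at 26.4, 23.2 and 22.3 TPM in H1p16 and at 16.01, 17.3 and 17.5 TPM in H1p43, again without overlap. Its log2 fold change was -0.52 ± 0.05 (edgeR adjusted p = 4.0e-08).

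In PRC1, RNF2, the ubiquitin ligase also called RING1B, was at 43.6, 42.9 and 44.5 TPM in H1p16 and at 33.1, 33.2 and 35.8 TPM in H1p43. All H1p43 libraries were lower, with a log2 fold change of -0.47 ± 0.04 (edgeR adjusted p = 1.8e-09). CBX2, which compacts chromatin, was at 111.2, 104.7 and 99.4 TPM in H1p16 and at 96.99, 96.1 and 93.8 TPM in H1p43. The gap between the groups was small beside the range within H1p16, and the log2 fold change of -0.26 ± 0.03 (edgeR adjusted p = 9.3e-07) became -0.13 with limma on log2(TPM + 1), still called. CBX7 was at 2.67, 2.68 and 2.74 TPM in H1p16 and at 9.04, 9.09 and 9.82 TPM in H1p43. Here the groups were far apart, and the log2 fold change of 1.68 ± 0.07 (edgeR adjusted p = 8.7e-13) was the largest in size among the 10 genes, and stayed between 1.64 and 1.70 when any 1 library was left out.

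**Figure D2:**
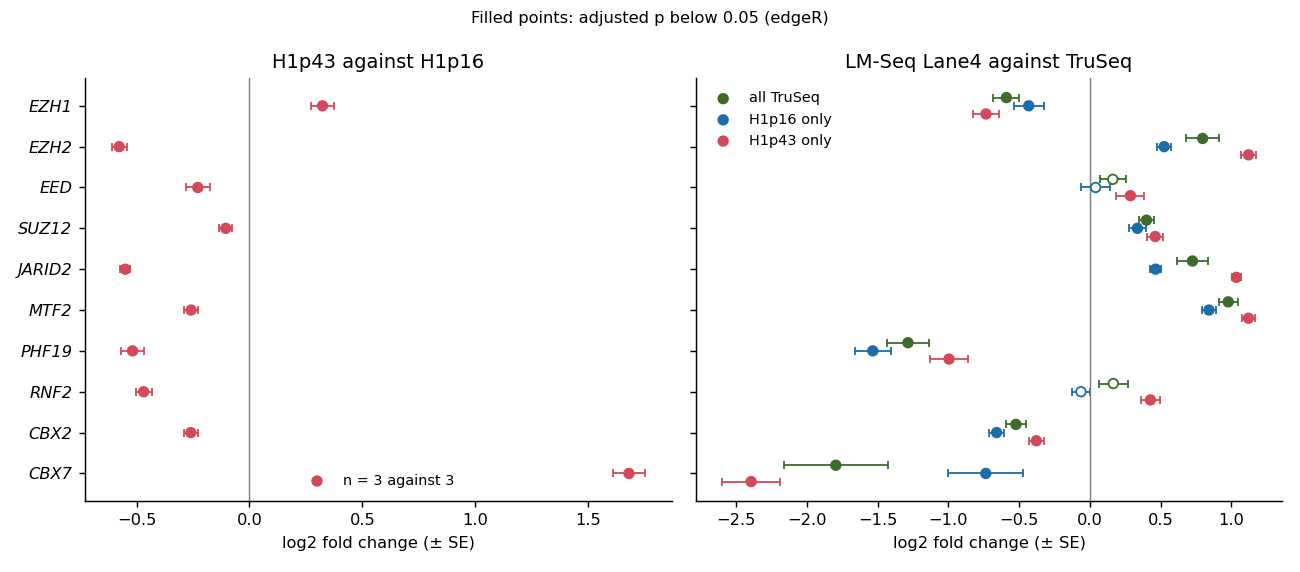
Log2 fold change (x axis, bars ± SE) of the 10 genes for H1p43 against H1p16 (left) and for LM-Seq Lane4 against TruSeq (right), from edgeR. Filled points passed an adjusted p of 0.05; on the right, colours give all TruSeq libraries, H1p16 alone or H1p43 alone as the other side, and CBX7 runs from -0.74 against H1p16 to -2.40 against H1p43.

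Several of these subunits replace one another in the complex, so their balance was measured as the percentage of summed TPM in each library. EZH1 made up 11.3%, 11.1% and 10.6% of EZH1 and EZH2 together in H1p16, and 19.2%, 18.3% and 18.97% in H1p43. The mean share was 7.80 percentage points higher in H1p43 and the SD 0.37 in H1p16 and 0.48 in H1p43 (n = 3 each), with no overlap. The share of PHF19 among the Polycomb-like genes MTF2, PHF19 and PHF1 was 18.6% ± 1.52 and 14.1% ± 0.56, and that of RNF2 over RNF2 and RING1 was 56.3% ± 1.38 and 51.5% ± 1.84. For each of the 3 shares the libraries of the groups did not overlap. The exact two-sided permutation p was 0.1 each time, the smallest that 3 against 3 allows (adjusted p = 0.1 over 6 share tests), so the design cannot reach 0.05.

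In Lane4 the share of EZH1 ran from 5.84% to 6.27% (median 5.92%), below all TruSeq libraries, and the mean difference from TruSeq was -8.89 percentage points (exact permutation p = 0.00216, the smallest possible; adjusted p = 0.00433). PHF19 had a share of 3.49% to 5.09% (median 4.29%) in Lane4, a mean difference of -12.1 points with the same exact permutation p. RNF2 had one of 72.9% to 78.2% (median 76.2%), which lay 21.9 points above the TruSeq mean, again with the same exact permutation p. Against H1p16 alone the differences were -4.99, -14.4 and 19.5 points for EZH1, PHF19 and RNF2, and against H1p43 alone -12.8, -9.89 and 24.3 points (exact permutation p = 0.0238 each time, the smallest possible).

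**Figure D3:**
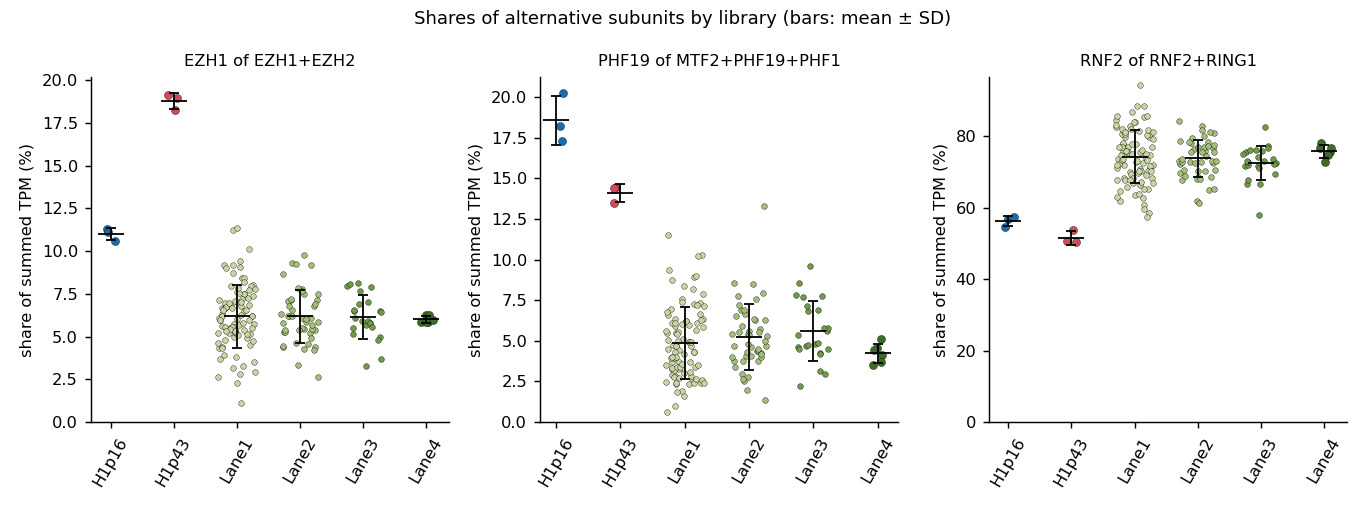
Share of summed TPM in percent (y axis, starting at 0) taken by EZH1, PHF19 and RNF2 among the alternative subunits named above each panel, in every library of the 6 groups (x axis). Points are libraries and bars give the mean ± SD; the EZH1 share is 10.6% to 11.3% in H1p16, 18.3% to 19.2% in H1p43 and 5.84% to 6.27% in Lane4.

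The other genes of the Polycomb system were read from 10 lists with 95 entries, of which 94 were found in the tables by symbol. In the PRC2 core, 1 of 6 genes was higher in H1p43, 4 were lower and 1 was not called. EZH1 and EZH2 stood at opposite ends, and RBBP4, a histone-binding subunit, was at -0.15 ± 0.03 (edgeR adjusted p = 3.4e-05), a call that limma on log2(TPM + 1) did not make (adjusted p = 0.223). Of the 6 accessory genes of PRC2.1, the form with a Polycomb-like subunit, 3 were higher and 2 lower. LCORL, a scaffold protein of this form, was higher by a log2 fold change of 0.64 ± 0.08 (edgeR adjusted p = 9.8e-07), opposite to MTF2 and PHF19. Both measured genes of PRC2.2, JARID2 and AEBP2, were lower, AEBP2 by -0.12 ± 0.04 (edgeR adjusted p = 0.0087; limma on log2(TPM + 1) adjusted p = 0.563).

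Among the 8 RING and PCGF genes of PRC1, 1 was higher, 5 were lower and 2 were not called, and both ligases, RNF2 and RING1, were among the lower ones. PCGF2, a partner of the RING proteins in canonical PRC1, was lower (-0.32 ± 0.04, edgeR adjusted p = 3.8e-07), and PCGF5, from variant PRC1, was higher (0.58 ± 0.13, edgeR adjusted p = 0.00068). Of 10 canonical PRC1 genes 4 were higher, 2 lower and 4 not called. Of the higher ones CBX7 and SCMH1, a sterile alpha motif protein (0.64 ± 0.06, edgeR adjusted p = 1.7e-08), had the lowest adjusted p. PHC2, named after its value was seen, was at 0.72 ± 0.09 (edgeR adjusted p = 1.0e-06).

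Variant PRC1, which lacks the CBX subunits of canonical PRC1, had 2 of 11 genes higher, 6 lower and 3 not called. KDM2B, which recruits it to CpG islands, was at -0.83 ± 0.03 (edgeR adjusted p = 1.6e-14), the scaffold protein MGA at -0.86 ± 0.03 and the corepressor BCOR at -0.92 ± 0.03. These were larger in size than the changes of EZH2 and JARID2. Of 9 genes linked to removal of ubiquitin from H2A, 2 were higher and 2 lower, with MBD5 at 1.41 ± 0.09 (edgeR adjusted p = 2.3e-10), USP16, a deubiquitinase, at -0.62 ± 0.05 and ASXL2 at -0.38 ± 0.03. KDM6A and KDM6B, the demethylases that undo the work of PRC2, were both higher, at 0.41 ± 0.03 (edgeR adjusted p = 7.7e-10) and 0.43 ± 0.11 (edgeR adjusted p = 0.0015).

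Trithorax and COMPASS genes, whose products methylate lysine 4 of histone H3 and act against Polycomb, were lower in 12 of 14 cases, higher in none and not called in 2, with a median log2 fold change of -0.23. SETD1B was lowest at -1.06 ± 0.04 (edgeR adjusted p = 5.3e-13), followed by MLL2, under that symbol in the files, at -0.61 ± 0.04 and MLL3 at -0.41 ± 0.04. Several of these counts depended on the scale. By limma on log2(TPM + 1) 7 of the 14 Trithorax and COMPASS genes were lower and 1 higher, MEN1 (also named after its value was seen), which edgeR had at 0.02 ± 0.04, uncalled. Their TPM values were lower in all H1p43 libraries for 9 genes, higher for 2 and overlapping for 3. The limma fit gave 2 higher and 1 lower in the PRC2 core, 2 and 2 of the RING and PCGF genes and 7 and 1 of the canonical PRC1 genes. Counts by list from edgeR are read beside the 36.4% of all genes called higher and 35.4% called lower. Those from limma are read beside 6132 of 13029 genes called higher and 3423 called lower. TPM values did not overlap, in either direction, for 76.2% of genes that averaged 1 TPM or more in a group.

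Of 26 developmental regulators known as Polycomb targets in embryonic stem cells, none reached a mean of 1 TPM in any group. Their summed level was 2.09 to 2.81 TPM in H1p16, 2.22 to 3.10 TPM in H1p43 and 0.69 to 2.71 TPM in Lane4, so the ranges overlapped. Between the TruSeq groups 3 of the 26 passed the filter on low counts and 1, PAX6, was called higher in H1p43. It had a log2 fold change of 0.58 ± 0.24 (edgeR adjusted p = 0.0389), and the call ended without H1p16 replicate 2 (log2 fold change 0.42) or 3 (0.54) and without H1p43 replicate 2 (0.51) or 3 (0.58). With the replicate number as a block PAX6 had an edgeR adjusted p of 0.0538.

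**Figure D4:**
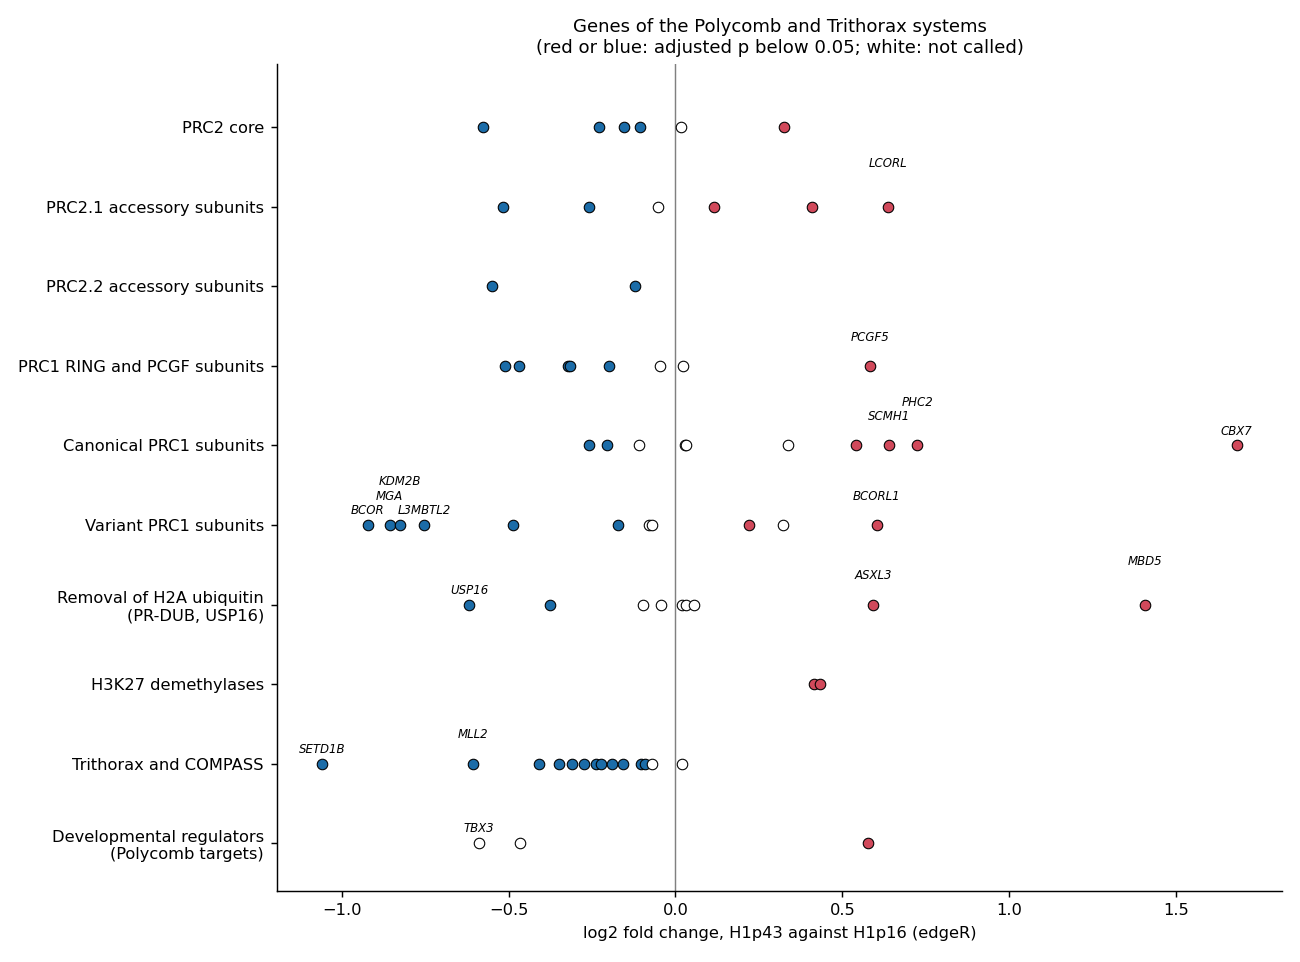
Log2 fold change of H1p43 against H1p16 (x axis, edgeR) for every tested gene of 10 lists of the Polycomb and Trithorax systems (rows). Each point is a gene; red and blue passed an adjusted p of 0.05 and white did not, and names are given for the larger changes. CBX7 at 1.68 lies farthest to the right, and SETD1B at -1.06 farthest to the left.

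The second comparison set LM-Seq Lane4, the lane nearest to TruSeq in depth, against all 6 TruSeq libraries. It shares the TruSeq libraries with the first comparison. The labels do not say that the LM-Seq and TruSeq libraries were made from the same RNA, so protocol and cells cannot be told apart. By edgeR, 8 of the 10 Polycomb genes were called, 4 higher and 4 lower in Lane4, beside 71.3% of 13827 genes, 34.3% higher and 36.9% lower. TPM values did not overlap for 8 of the 10, against 56.3% of 13205 genes. EZH2, SUZ12, JARID2 and MTF2 were higher in Lane4, and EZH1, PHF19, CBX2 and CBX7 were lower.

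EZH2 was at 94.99 to 104.5 TPM in Lane4 (median 99.8 TPM), above every TruSeq library, with a log2 fold change of 0.80 ± 0.12 (edgeR adjusted p = 1.4e-05). EZH1 was at 5.93 to 6.75 TPM (median 6.39 TPM), below every TruSeq library, with a log2 fold change of -0.59 ± 0.09 (edgeR adjusted p = 2.9e-05). The catalytic subunits therefore differed in opposite directions. SUZ12 was at 46.6 to 56.3 TPM (median 50.4 TPM) and its lowest library exceeded the highest TruSeq library. Its log2 fold change was 0.40 ± 0.05 (edgeR adjusted p = 6.2e-06), and 0.25 ± 0.06 with Lane1 in place of Lane4. EED, at 22.65 to 31.03 TPM (median 28.4 TPM), overlapped TruSeq and was not called (0.16 ± 0.09, edgeR adjusted p = 0.121).

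JARID2 was at 283 to 297 TPM (median 291 TPM), above all TruSeq libraries, with a log2 fold change of 0.73 ± 0.11 (edgeR adjusted p = 1.8e-05). MTF2 was at 127.8 to 140.4 TPM (median 130.3 TPM), 1.97-fold above TruSeq (log2 fold change 0.98 ± 0.07, edgeR adjusted p = 1.8e-09). PHF19, its paralog, was at 5.31 to 7.61 TPM (median 6.65 TPM), 2.44-fold below TruSeq by counts (-1.29 ± 0.15, edgeR adjusted p = 8.4e-07). The members of the Polycomb-like family thus lay on opposite sides, and PHF1, the third of them, was also lower (-1.12 ± 0.10, edgeR adjusted p = 5.1e-08). PHF19 has 2 transcripts in the files, and the ratio of its counts to its TPM, relative to that of the single-transcript members SUZ12, JARID2 and RNF2, was 0.485 in H1p16, 0.517 in H1p43 and 0.629 in Lane4, where single libraries ran from 0.462 to 0.957. For EZH2 the same ratio stayed between 0.593 and 0.598 in the libraries of Lane4. The part of this ratio in the level of PHF19 was not tested, and its difference was called in the same direction from counts and, by limma, from log2(TPM + 1) (-1.50 ± 0.13, adjusted p = 5.4e-08).

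RNF2 was at 39.25 to 47.1 TPM (median 42.1 TPM), which overlapped TruSeq (log2 fold change 0.17 ± 0.10, edgeR adjusted p = 0.166). CBX2 was at 64.02 to 74.5 TPM (median 69.2 TPM), below all TruSeq libraries (-0.52 ± 0.07, edgeR adjusted p = 7.8e-06). CBX7 was at 0.88 to 2.25 TPM (median 1.79 TPM), also below all of them (-1.80 ± 0.37, edgeR adjusted p = 0.00041). RING1, the other ligase, was lower (-1.24 ± 0.10, edgeR adjusted p = 8.7e-09), where RNF2 was not called.

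Because the TruSeq side pools groups that differ from each other, each was also set against Lane4 alone. Against H1p16 alone 8 of the 10 genes were called, beside 66.8% of all genes, and against H1p43 alone all 10, beside 73.2%. TPM values did not overlap for 8 of the 10 against H1p16, beside 66.5% of all genes, and for 9 of the 10 against H1p43, beside 74.1%. EZH2 was at 0.53 against H1p16 and 1.12 against H1p43, JARID2 at 0.46 and 1.04, and CBX7 at -0.74 (edgeR adjusted p = 0.0192) and -2.40 (edgeR adjusted p = 4.9e-09). RNF2 was at -0.06 (edgeR adjusted p = 0.406) and 0.43 (edgeR adjusted p = 1.3e-05), and EED at 0.04 (edgeR adjusted p = 0.742) and 0.29 (edgeR adjusted p = 0.0147). The remaining genes, MTF2, SUZ12, PHF19, CBX2 and EZH1, were called in the same direction against each TruSeq group.

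In the wider lists for this comparison, 7 of 14 Trithorax and COMPASS genes were higher in Lane4 and 4 lower, with RBBP5 at 1.43 ± 0.08, MLL3 at 0.98 ± 0.10 and DPY30, a short subunit of COMPASS, at -2.19 ± 0.11 (edgeR adjusted p = 4.5e-11). Of the canonical PRC1 genes 2 of 10 were higher and 6 lower, with PHC3 at 1.21 ± 0.07 and its paralog PHC1 at -0.59 ± 0.04 (edgeR adjusted p = 6.4e-10). Variant PRC1 had 4 of 11 genes higher and 3 lower, USP7 being at 0.91 ± 0.10 (edgeR adjusted p = 6.9e-07). USP16 was at 1.71 ± 0.13 and FOXK1 at 1.52 ± 0.11 among the genes of H2A deubiquitination, with MBD6 at -1.32 ± 0.08 (edgeR adjusted p = 5.0e-10). KDM6A was lower (-0.54 ± 0.09, edgeR adjusted p = 6.8e-05) and KDM6B was not called. Counts by list in this comparison are read beside the 34.3% of all genes called higher and 36.9% called lower by edgeR.

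The third comparison set the deeper lanes against Lane1. Medians over all libraries of Lane1, Lane2 and Lane3 were 97.3, 99.5 and 100.0 TPM for EZH2, 6.5, 6.59 and 6.57 TPM for EZH1, 28.4, 27.5 and 28.5 TPM for EED and 47.9, 48.9 and 48.8 TPM for SUZ12. Those of JARID2 were 291, 292 and 293 TPM, those of MTF2 130.1, 131.025 and 131.96 TPM, and those of PHF19 6.59, 7.69 and 8.06 TPM. Those of RNF2 were 42.9, 44.6 and 41.4 TPM, those of CBX2 71.4, 72.2 and 69.97 TPM and those of CBX7 1.48, 1.56 and 1.44 TPM. The tests used the library numbers that both lanes hold. By edgeR none of the 10 genes was called between Lane4 and Lane1 (6 numbers), and none of 9 tested between Lane3 and Lane1 (24 numbers) or Lane2 and Lane1 (48 numbers), where CBX7 did not pass the filter on low counts. The background was 0.0161%, 0.00% and 0.00% of genes called. At an unadjusted p under 0.05 there were also 0, 0 and 0 of them by edgeR and by DESeq2, and 0, 1 and 0 by limma on log2(TPM + 1). With the library number as a block, which called 0.105%, 0.405% and 0.257% of all genes, there were 1 (CBX7), 2 (PHF19 and CBX2) and 1 (PHF19) of the 10 at that unadjusted p, and none passed adjustment (edgeR adjusted p of 0.496 or more).

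The log2 fold changes between lanes lay between -0.10 and 0.21 for the genes tested in Lane2 and Lane3. In Lane4 they lay between -0.18 and 0.07 for 9 of the 10, and CBX7, with the fewest reads, was at -0.73 ± 0.45 (edgeR adjusted p = 1.00). With the library number as a block CBX7 was at -0.70 ± 0.33 (edgeR unadjusted p = 0.0403, adjusted p = 0.967), and by limma on log2(TPM + 1) at -0.24 ± 0.41. It was at 0 in 7 of 95 libraries of Lane1.

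The spread between libraries differed between the lanes, which differ in depth and in the number of libraries. In Lane1 EZH1 ran from 0.90 to 11.1 TPM, PHF19 from 0.88 to 17.6 TPM and CBX7 from 0 to 5.11 TPM. JARID2 ran from 235 to 325 TPM, a coefficient of variation (SD over mean) of 5.15%, against 65.02% for CBX7 and 47.5% for PHF19. Counting alone, taken from expected counts and not from TPM, would give 3.41% for JARID2, 55.8% for CBX7 and 31.8% for PHF19 in Lane1. For PHF19 the ratio of counts to TPM, relative to the single-transcript members, ran from 0.214 to 0.958 in Lane1 libraries. The part of this ratio in the spread of its TPM was not tested. From counts alone, the variance of PHF19 between Lane1 libraries was 1.19 times that of counting noise. In Lane4 the coefficient of variation was 1.804% for JARID2, 3.10% for EZH2, 3.57% for MTF2, 4.58% for EZH1 and 30.8% for CBX7.

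The variance of counts between libraries divided by that of counting noise was 1.15 to 2.16 for the 10 genes in Lane1, with RNF2 highest and EZH1 lowest, beside a median of 1.54 over 9287 genes with a mean count of at least 10. In Lane4 it ran from 0.33 for EZH1 and 1.09 for EZH2 to 9.99 for CBX2, beside a median of 5.37 over 13200 genes. EZH2 and EZH1 thus varied between the 6 deep libraries by about what counting gives or less, and CBX2, SUZ12 (6.86) and RNF2 (6.35) by more. This ratio grows with depth and is not compared between lanes.

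**Figure D5:**
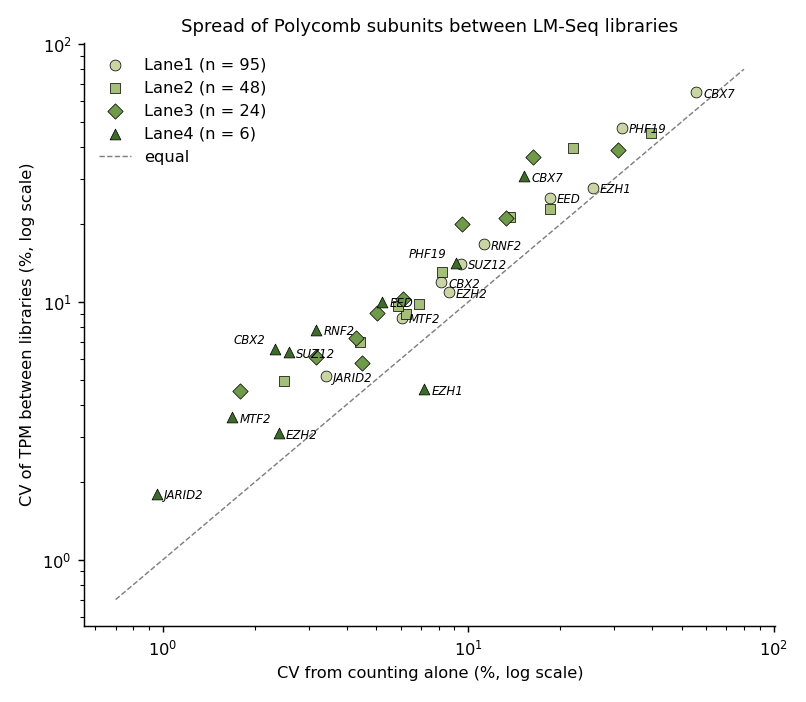
Coefficient of variation of TPM between LM-Seq libraries (y axis, percent, log scale) against that expected from counting alone (x axis, percent, log scale) for the 10 genes in each lane. The x axis is taken from expected counts, so a changing ratio of counts to TPM, as for PHF19, enters the y axis only. Marker shape and colour give the lane, names are printed for Lane1 and Lane4, and the dashed line marks equality; JARID2 is lowest in both lanes, and EZH1 in Lane4 lies below the line at 4.58%.

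Whether differences between LM-Seq libraries recur was measured over the 48 library numbers found in both Lane1 and Lane2. On log2(TPM + 1), RNF2 had Pearson's r = 0.593 (permutation p = 2e-05, adjusted p = 1e-04 over 10 genes) and Spearman's rho = 0.617 (permutation p = 1e-05, the smallest possible). Leaving out the 2 numbers farthest from the Lane1 median gave r = 0.582. JARID2 had r = 0.619 (permutation p = 2e-05, adjusted p = 1e-04) and rho = 0.491 (permutation p = 0.00042), with r = 0.499 without the 2 farthest numbers. For these genes, libraries that were high in 1 lane tended to be high in the other. CBX7 had r = 0.478 (permutation p = 0.00064) and rho = 0.460 (permutation p = 0.00114), MTF2 r = 0.417 (permutation p = 0.00341) and rho = 0.313 (permutation p = 0.0309). EZH1 had r = 0.467 (permutation p = 0.00186) and rho = 0.322 (permutation p = 0.0261, adjusted p = 0.0441). Without the 2 farthest numbers its r was 0.204, so the size of its r depended on those. The adjusted p of these 3 genes was 0.00213 to 0.00682 by Pearson's r in the permutation test. EED, EZH2, SUZ12, CBX2 and PHF19 had r from 0.268 for PHF19 to 0.371, or 0.233 for EED to 0.324 for CBX2 without the 2 farthest numbers, and PHF19 did not pass (permutation p = 0.0654). On log2(CPM + 1) of its counts PHF19 had r = 0.434 (permutation p = 0.00203, adjusted p = 0.00406). After adjustment 9 of the 10 genes passed by Pearson's r and 7 by Spearman's rho. The share of all genes that would pass was not computed, so these counts do not set the 10 genes apart. The median r over 12607 genes was 0.378, and EED, EZH2, SUZ12, CBX2 and PHF19 lay below it. The upper quartile was 0.5005, so that RNF2 and JARID2 lay above the upper quartile of all genes and the others below it. JARID2 was just under that value without its 2 farthest numbers, and had r = 0.496 on log2(CPM + 1). Within the 24 numbers that Lane3 also holds, r was 0.703 for RNF2 and 0.358 for JARID2. Within the other 24 it was 0.420 and 0.809. The sources used here do not say if 1 number stands for the same library run in more than 1 lane.

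As a description of which genes vary most like the 3 members with the highest counts, Pearson's r was taken over the 95 Lane1 libraries with each of 6203 genes at a mean of at least 20 TPM. PRRC2B (r = 0.577) and ARFGEF1 (r = 0.553) were nearest to JARID2, and in Lane2 their r with it was 0.656 and 0.562. RAD17 (r = 0.535) and PPID (r = 0.472) were nearest to MTF2, with 0.274 and 0.524 in Lane2. SNRPA (r = 0.435) and TRAPPC2L (r = 0.424) were nearest to CBX2, with 0.319 and 0.0147 in Lane2. All pairs share their libraries and depth, and the nearest of 6203 genes are high by selection.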

How the data were processed

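H1 RNA was measured in 179 libraries. Tools named in the submitters' processing notes are RSEM 1.2.3, Bowtie 0.12.8 and CASAVA 1.8.2, and the build is hg19. One deposited table holds expected counts, in which RSEM divides reads among transcripts and similar genes, and the other deposited table holds TPM, which corrects them for transcript length and library total. Use of strand in counting is not stated in those notes or labels, so genes that overlap or have near copies are uncertain. No coordinates come from these tables.

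Expected counts were rounded and tested with edgeR 4.0.16 in R 4.3.3 (filterByExpr, TMM normalization, quasi-likelihood test, no covariates, Benjamini-Hochberg adjustment over all genes, calls under 0.05). Alternatives were RLE size factors, DESeq2 1.42.0, no filter, limma 3.58.1 on log2(TPM + 1) for genes averaging 1 TPM or more, a minimum log2 fold change of 0.5, other lanes or groups, each TruSeq replicate left out, and the replicate number as a block. Shares were tested by exact permutation over libraries and correlations with 100000 resamples, all two-sided.

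The text names all 10 genes, up to 3 called genes per list with the lowest adjusted p in each comparison, genes a share needs and, for likeness, 2 genes for each of 3 members. Shares among the CBX genes and some list genes are not reported here. Members and lists were chosen with earlier results of these data known.

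Same-numbered libraries deviated together from their lane means, with correlations to Lane1 of 0.428 to 0.501 in Lane4, 0.251 to 0.652 in Lane3 and 0.206 to 0.707 in Lane2. No 2 libraries of a group agreed within counting noise (chi-square per degree of freedom of at least 1.29). The edgeR step was tested on simulated data: for H1p43 against H1p16, over 14480 genes, it recovered 95 of 100 genes changed 2-fold and 90 changed 1.5-fold, and called 5 of 14283 unchanged genes. For Lane4 against TruSeq, over 13770 genes, it recovered 98 and 66 and called 13 of 13572. For Lane4 against Lane1, over 12322 genes, it recovered 89 and 54 and called 7 of 12123. The simulated counts had a common dispersion for all genes and few changed genes. In the data 71.8% of genes were called for H1p43 against H1p16, so these rates describe the simulation and not the calls above.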

Additional observations from a re-analysis of the deposited data

How the results depend on the processing

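Over the alternatives run, the count of Polycomb genes called was within 1.5 times its value except with a minimum log2 fold change of 0.5, where 3 genes (EZH2, JARID2 and CBX7) were called for H1p43 against H1p16 and 5 for Lane4 against TruSeq, beside 2231 and 5442 of all genes. In limma on log2(TPM + 1), SUZ12 (0.0047) and the fibroblast marker COL1A1 (0.0271, against -0.08 by edgeR) were no longer lower in H1p43. By the same alternative 64.2% of called genes were higher in H1p43, against 50.7% by edgeR; the cause was not tested. Without the filter on low counts the median log2 fold change of all genes for Lane4 against TruSeq moved from -0.06 to -0.20. More genes were tested there (17603 in place of 13827), and the cause of the move was not tested.

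Leaving out 1 TruSeq replicate at a time left 10 of 10 genes called for H1p43 against H1p16, with log2 fold changes of -0.61 to -0.56 for EZH2, -0.57 to -0.54 for JARID2, 0.28 to 0.34 for EZH1 and -0.12 to -0.10 for SUZ12. The labels state no pairing between H1p43 and H1p16 libraries of the same replicate number. Their deviations correlated at 0.0507 to 0.0709, and 3 of 3 correlated best with their own. These values do not settle whether such libraries share more than a number. With the replicate block 10463 genes, in place of 10460, and all 10 Polycomb genes were called. For the lanes the block moved the count over all genes from 2, 0 and 0 to 13, 44 and 26 in Lane4, Lane3 and Lane2, with 0 Polycomb genes among them. All libraries of both lanes gave 0, 60 and 0 genes, and no filter 3, 0 and 1. In Lane1 CBX7, EZH1 and PHF19 had the lowest mean counts of the 10 genes. Counting alone would give them a coefficient of variation of 55.8%, 25.6% and 31.8% there. The part of depth in their spread was not tested.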
